A study of Homo sapiens with 6 samples.

Results

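To explore how genes of the G2 phase and of mitosis behaved after silencing of interleukin-1β (IL-1β), 40 such genes were examined in Cal27, a long-established cell line from a squamous carcinoma of the human tongue. The 40 were chosen by name as known G2/M genes, with earlier results of these data known. They came out of 19775 genes that the platform annotation ties to a probe set of 1 symbol. Each gene was read on its brightest probe set, that is, the group of short probes for 1 transcript with the highest mean over the 6 arrays. All 40 genes had a probe set, and all 40 lay above the filter on dim probe sets in both groups. Cells carrying a lentiviral short hairpin RNA against IL-1β (LV-shIL-1β, 3 arrays) were compared with cells carrying a scrambled hairpin (LV-shNC, 3 arrays). The knockdown cells had been selected in puromycin at 2 µg/mL for 2 weeks, selection of the LV-shNC cells is not stated separately, and 6 µg of total RNA was labelled for each array. Only 1 hairpin against IL-1β was used, and whether the 3 RNA samples of a group came from separate cultures is not stated in the labels or methods. The p-values therefore cover only array-to-array spread within these samples, and that spread may be purely technical.

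Entry into mitosis is driven by CDK1 bound to cyclin B, while the spindle checkpoint holds back anaphase until every chromosome is attached. Ubiquitination by the anaphase-promoting complex then destroys the cyclins and securin, and the cell divides. The genes for these proteins are transcribed late in the cycle, so in a growing culture their RNA reports on how many cells are in G2 and mitosis as well as on the level per cell. In RNA from whole cultures, fewer cells in G2/M and less RNA per cell cannot be told apart.

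The hairpins are shown because they are the only designed difference between the groups. Capitals mark the longest stretches that are reverse complements of each other, each 20 bases long, as found by a search. The search cannot tell stem from loop by design, so the designed arms may be shorter.
LV-shIL-1β: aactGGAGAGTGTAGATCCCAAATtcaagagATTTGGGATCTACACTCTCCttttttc
LV-shNC: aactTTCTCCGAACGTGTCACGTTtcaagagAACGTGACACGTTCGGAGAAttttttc
IL1B, the target, was at 1569, 1569 and 1596 in LV-shIL-1β arrays 1 to 3 and at 2677, 2611 and 2494 in LV-shNC arrays 1 to 3 (linear signal, brighter probe set). The groups did not overlap, and the log2 fold change was -0.72 ± 0.04 (SE, limma, Benjamini-Hochberg adjusted p = 2.46e-05). As a reading of RNA integrity, 3′ signal over 5′ signal on the log2 scale was 0.39 ± 0.05 in LV-shIL-1β and 0.41 ± 0.13 in LV-shNC for ACTB (SD, n = 3, two-sided exact permutation p = 0.9). For GAPDH it was 0.04 ± 0.01 in LV-shIL-1β and -0.02 ± 0.03 in LV-shNC, without overlap (SD, n = 3, two-sided exact permutation p = 0.1, the smallest that 3 against 3 allows). The part of this difference in the results was not tested. Array medians ran between 18.4 and 18.9.

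Cal27 is labelled as a squamous cell carcinoma line, and markers of squamous epithelium were bright, with KRT14 at a mean of 5613 in LV-shIL-1β and 7175 in LV-shNC. CDH1 was at 1390 in LV-shIL-1β and 1349 in LV-shNC. Of 9 keratinocyte markers tested, 3 were lower and 0 higher (limma, Benjamini-Hochberg adjusted p under 0.05), namely KRT5, KRT14 and PKP1. The leukocyte marker PTPRC was near the bottom of the scale, at 2.64 in LV-shIL-1β and 2.68 in LV-shNC. The summed signal of 9 fibroblast markers was 154 to 168 in LV-shIL-1β and 192 to 211 in LV-shNC, and of the 5 tested 2 were lower, LUM and COL1A2. Of the leukocyte markers 1 was tested and was higher, CD14, and of 2 endothelial markers tested 0 passed. No marker was at 0. The part of these markers in the results below was not tested.

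Of the 40 G2/M genes, 3 were lower in LV-shIL-1β and 0 were higher. These were the kinesin gene KIF20A, the spindle gene NUSAP1 and the cyclin gene CCNB2. Among all 12320 genes read in the same way, 4.5% were lower and 4.03% higher (limma, Benjamini-Hochberg adjusted p under 0.05 over 27566 probe sets, of which 7.05% were called). The share of members called was thus near the background, and 1 member, KIF20A, was lower when LV-shIL-1β 2, LV-shIL-1β 3 or LV-shNC 2 was left out. The 3 falls were small, between 13.0 and 18.4%, and the estimates of all 40 members lay between -18.4 and 7.06%. A log2 fold change below 0 was seen in 30 of the 40 members, against 48.9% of all genes. The median log2 fold change was -0.10 over the members and 0.00 over the 12320 genes (0.0036 before rounding). At an unadjusted limma p under 0.05, 14 members were lower and 0 higher, against 12% lower and 13% higher among all genes. The groups were apart, with LV-shIL-1β the lower, in 13 members, against 15.7% of all genes. They were apart with LV-shIL-1β the higher in 0 members, against 15.9%. The members share the same arrays and were chosen with earlier results of these data known. These counts are therefore not independent readings, and their distance from the shares of all genes was not tested. The 37 members that did not pass had 95% confidence intervals between -0.54 and 0.32 on the log2 scale, so none of them reached a fold of 1.5.

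**Figure D1:**
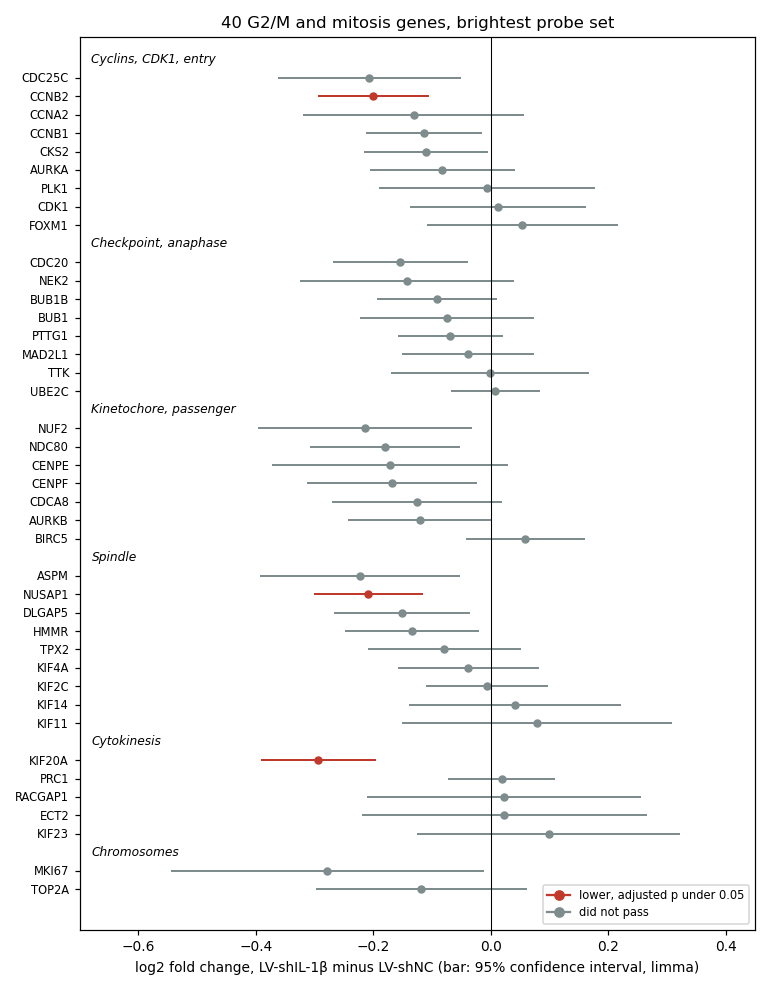
Log2 fold change of each of the 40 G2/M genes (horizontal axis, brightest probe set, difference of LV-shIL-1β from LV-shNC) in role groups down the page; points are estimates, bars are 95% confidence intervals from limma, and red marks genes lower at an adjusted p under 0.05. KIF20A (-0.29), NUSAP1 (-0.21) and CCNB2 (-0.20) are red, and 30 of the 40 points lie left of 0.

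The promoters of the 3 lowered genes are shown with those of PRC1 and PLK1, which did not pass, because G2/M genes are known to share short promoter elements. The letters TTTGAA are a form of the cell cycle homology region, which MuvB complexes bind, and CCAAT is the box bound by NF-Y. Other forms of the region were not searched. Each stretch holds the 150 bases before the gene start from RefSeq (build GRCh38.p14), 5′ to 3′ on the strand of the gene, with matches to these letters on either strand in capitals.
KIF20A: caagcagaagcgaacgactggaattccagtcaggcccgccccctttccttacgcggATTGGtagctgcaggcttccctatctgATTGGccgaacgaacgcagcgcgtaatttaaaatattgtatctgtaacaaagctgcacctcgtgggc
CCNB2: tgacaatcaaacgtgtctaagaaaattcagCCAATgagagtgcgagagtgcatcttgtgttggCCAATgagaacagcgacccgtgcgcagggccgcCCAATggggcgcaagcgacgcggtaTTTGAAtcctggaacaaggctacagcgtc
NUSAP1: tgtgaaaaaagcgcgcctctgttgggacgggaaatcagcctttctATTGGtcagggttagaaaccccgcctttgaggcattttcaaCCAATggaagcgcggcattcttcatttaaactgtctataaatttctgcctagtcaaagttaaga
PRC1: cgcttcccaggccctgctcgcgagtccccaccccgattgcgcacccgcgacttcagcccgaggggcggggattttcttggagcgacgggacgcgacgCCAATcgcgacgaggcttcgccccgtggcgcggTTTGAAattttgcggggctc
PLK1: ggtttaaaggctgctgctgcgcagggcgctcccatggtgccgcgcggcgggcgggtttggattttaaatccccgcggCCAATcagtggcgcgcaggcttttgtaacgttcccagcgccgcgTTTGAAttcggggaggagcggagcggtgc
They lie at chr5:138178962-138179111 (plus strand), chr15:59104996-59105145 (plus strand), chr15:41332731-41332880 (plus strand), chr15:90994536-90994685 (minus strand) and chr16:23678739-23678888 (plus strand). CCNB2 held 3 CCAAT boxes and 1 TTTGAA in this stretch, KIF20A and NUSAP1 held 2 CCAAT boxes and 0 TTTGAA each, and PRC1 and PLK1 held 1 of each. NUSAP1 had a TTTGAA just past the stretch shown, at offset 13 after the gene start. The letters thus occurred in promoters of genes that were lower and of genes that were not.

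RefSeq promoter windows of 300 bases, 250 before the start and 50 after it, were found for 33 of the 40 members. Several members had more than 1 start, which gave 40 windows. TTTGAA or its reverse complement stood in 67.5% of these windows, against 15.2% of all 35116 windows of the same length, and CCAAT or its reverse complement in 80.0%, against 34.6%. In 48 windows of G1/S genes, TTTGAA stood in 4.17% and CCAAT in 64.6%. Both stood together in 57.5% of the windows of members and in 5.90% of all windows. A CCAAT box and a TTTGAA next to it can share 1 base, so a few matches may overlap. The 21 members with both in 1 window had a median log2 fold change of -0.12, with 2 of them lower, and the 12 without both had a median of -0.13, with 1 of them lower. KIF20A was among the 12, with CCAAT and without TTTGAA. A match is a description of the window and not of binding. A window without TTTGAA may hold another form of the cell cycle homology region, which was not searched.

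Among the cyclins and the kinases of mitotic entry, CCNB2, which encodes the B2 cyclin partner of CDK1, was the 1 gene of 9 that was lower. Its signal was 975, 946 and 949 in LV-shIL-1β arrays 1 to 3, and 1120, 1124 and 1055 in LV-shNC arrays 1 to 3. Every LV-shIL-1β array lay below every LV-shNC array. The log2 fold change was -0.20 ± 0.04 (SE, limma, Benjamini-Hochberg adjusted p = 0.0209), a decrease of 13.0%. The call was lost without LV-shIL-1β 2 or 3 or LV-shNC 1 or 2 (largest limma adjusted p = 0.0963). CCNB1, the other B-type cyclin of the list, also had groups that did not overlap, at 1377 to 1523 in LV-shIL-1β and 1539 to 1592 in LV-shNC, but did not pass (log2 fold change -0.11 ± 0.04, SE, adjusted p = 0.155). Its dimmer probe set stood at 0.13 ± 0.07, on the other side of 0.

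CDC25C, the phosphatase that activates CDK1, had the largest difference of this group in size. It was at 84.4, 86.1 and 80.9 in LV-shIL-1β arrays and at 96.0, 91.5 and 102.9 in LV-shNC arrays. The groups did not overlap, but the difference did not pass (log2 fold change -0.21 ± 0.07, SE, limma, adjusted p = 0.107). CKS2, a small CDK-binding protein and the brightest gene of the group, was at 2452, 2431 and 2339 in LV-shIL-1β and 2452, 2778 and 2574 in LV-shNC. Array 1 of each group read the same, and the difference did not pass (-0.11 ± 0.05). CCNA2, the A-type cyclin, stood at -0.13 ± 0.08, the kinase AURKA at -0.08 ± 0.05, PLK1, the polo-like kinase, at -0.01 ± 0.08, and FOXM1, the transcription factor of G2/M genes, at 0.05 ± 0.07. None of these 4 genes passed.

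CDK1, the kinase at the centre of the list, was the clearest case of a reading that depended on the probe set. On the brightest it was at 1692, 1441 and 1404 in LV-shIL-1β arrays and at 1430, 1538 and 1518 in LV-shNC arrays, with overlap and a log2 fold change of 0.01 ± 0.07 (SE). On the next it was at 1017, 1024 and 1037 in LV-shIL-1β and at 1219, 1253 and 1112 in LV-shNC. There the groups did not overlap, and the fold change passed (-0.22 ± 0.05, SE, limma, Benjamini-Hochberg adjusted p = 0.0287). That call was lost on leaving out any array except LV-shNC 3 (largest limma adjusted p = 0.112). The third probe set stood just outside the threshold (-0.15 ± 0.04, adjusted p = 0.0534) and the dimmest at -0.06 ± 0.08.

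None of the 8 checkpoint and anaphase genes passed on its brightest probe set. CDC20, the activator of the anaphase-promoting complex, had the largest difference, at 1285, 1444 and 1422 in LV-shIL-1β arrays and at 1593, 1487 and 1536 in LV-shNC arrays. The groups did not overlap (log2 fold change -0.15 ± 0.05, SE, limma, adjusted p = 0.104). Securin, PTTG1, which holds separase inactive, was at 1841, 2002 and 1954 in LV-shIL-1β and at 1995, 2041 and 2044 in LV-shNC, with 1 LV-shIL-1β array inside the LV-shNC range (-0.07 ± 0.04). UBE2C, the ubiquitin-conjugating enzyme of the same complex, was steady, at 1651 to 1690 in LV-shIL-1β and 1639 to 1670 in LV-shNC. Its log2 fold change was 0.01 ± 0.03, with a 95% confidence interval of the change from -4.51 to 5.86%. The checkpoint kinases BUB1 (-0.08 ± 0.07), BUB1B (-0.09 ± 0.04) and TTK (0.00 ± 0.07) and the checkpoint protein MAD2L1 (-0.04 ± 0.05) did not pass either. The centrosome kinase NEK2 stood at -0.14 ± 0.08 on the brighter of 2 probe sets. On the dimmer it was at 171, 162 and 153 in LV-shIL-1β and at 221, 213 and 185 in LV-shNC, and passed (-0.35 ± 0.08, SE, limma, Benjamini-Hochberg adjusted p = 0.0285). Without LV-shIL-1β 2 or 3 or LV-shNC 1 or 2 it did not (limma, adjusted p up to 0.111).

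Of the 7 kinetochore and chromosomal passenger genes 0 passed. A log2 fold change below 0 was seen in 6 of 7, against 48.9% of all genes. At an unadjusted limma p under 0.05, 3 were lower, against 12% of all genes, and the 7 genes share the same 6 arrays. The group's median was -0.17, against 0.00 over all genes. NUF2, a subunit of the complex that ties kinetochores to microtubules, was at 226, 211 and 184 in LV-shIL-1β arrays and at 223, 247 and 248 in LV-shNC arrays. Array 1 of LV-shIL-1β lay above array 1 of LV-shNC and the others below all LV-shNC arrays (log2 fold change -0.21 ± 0.08, SE, limma, adjusted p = 0.149). NDC80, its partner in that complex, had groups without overlap, at 486 to 528 in LV-shIL-1β and 557 to 616 in LV-shNC (-0.18 ± 0.06, adjusted p = 0.0892). CENPF, a large kinetochore protein of late G2, was at 623, 618 and 688 in LV-shIL-1β and at 784, 685 and 700.3 in LV-shNC, with LV-shIL-1β 3 inside the LV-shNC range (-0.17 ± 0.06, adjusted p = 0.15). The kinetochore motor CENPE stood at -0.17 ± 0.09. Of the passenger complex, AURKB, its kinase, was at -0.12 ± 0.05 and CDCA8, borealin, at -0.13 ± 0.06, both without overlap between groups, whereas BIRC5, survivin, was at 0.06 ± 0.04 with overlap.

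Among 9 genes of spindle motors and microtubule-binding proteins, NUSAP1, which bundles microtubules around chromosomes, was the 1 that was lower. It was at 693, 690 and 691 in LV-shIL-1β arrays and at 779, 814 and 805 in LV-shNC arrays. The LV-shIL-1β arrays lay close together and below every LV-shNC array. The log2 fold change was -0.21 ± 0.04 (SE, limma, Benjamini-Hochberg adjusted p = 0.0158), a decrease of 13.5%. On its other probe set it was also lower, at 582, 645 and 614 in LV-shIL-1β and at 842, 775 and 716 in LV-shNC (-0.34 ± 0.06, adjusted p = 0.0139). The call on the brightest probe set was lost without LV-shIL-1β 2 or 3 or LV-shNC 2 or 3 (largest limma adjusted p = 0.0732). On the other it was lost only without LV-shIL-1β 3 (adjusted p = 0.0511).

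ASPM, which focuses spindle poles, had the largest difference of the spindle group on the brightest probe set, at 432, 352 and 397 in LV-shIL-1β arrays and 440, 483 and 451 in LV-shNC arrays. The groups did not overlap, and the difference did not pass (log2 fold change -0.22 ± 0.08, SE, limma, adjusted p = 0.112). Its other 2 probe sets were lower (-0.31 ± 0.08, adjusted p = 0.0494, and -0.38 ± 0.09, adjusted p = 0.0421). The first of these calls held on leaving out LV-shIL-1β 1 and the other on leaving out LV-shNC 3, and both were lost on leaving out any other array (largest limma adjusted p = 0.169). HMMR, a spindle-associated hyaluronan receptor, and DLGAP5, a spindle assembly factor, had groups without overlap, at -0.13 ± 0.05 and -0.15 ± 0.05 (adjusted p = 0.146 and 0.112). TPX2, the activator of AURKA at the spindle, stood at -0.08 ± 0.06. The motors KIF4A (-0.04 ± 0.05), KIF2C (-0.01 ± 0.05), KIF14 (0.04 ± 0.08) and KIF11 (0.08 ± 0.10) had overlapping groups.

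On the brightest probe sets, the 5 genes of the central spindle and cytokinesis held the largest fall of the list and 4 of its 10 values above 0. KIF20A, the kinesin that carries passenger proteins to the central spindle, was at 640, 678 and 667 in LV-shIL-1β arrays and at 795, 821 and 817 in LV-shNC arrays. The gap between the groups was wider than the spread within either. The log2 fold change was -0.29 ± 0.04 (SE, limma, Benjamini-Hochberg adjusted p = 0.00399), a decrease of 18.4% (95% confidence interval 12.8 to 23.7%). KIF20A passed on leaving out any one array (largest limma adjusted p = 0.0237). It did not pass the methods' t-test (Benjamini-Hochberg adjusted p = 0.0513). PRC1, which cross-links the central spindle, was at 1069, 1103 and 1127 in LV-shIL-1β and at 1109, 1061 and 1087 in LV-shNC, with full overlap (0.02 ± 0.04). KIF23 (0.10 ± 0.10) and RACGAP1 (0.02 ± 0.10), the 2 subunits of centralspindlin, also overlapped, with wide spreads between arrays. So did ECT2, the exchange factor that they recruit (0.02 ± 0.11). Other probe sets lay below 0 without passing, at -0.18 ± 0.11 for KIF23 and at -0.11 ± 0.11 and -0.27 ± 0.11 for ECT2.

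**Figure D2:**
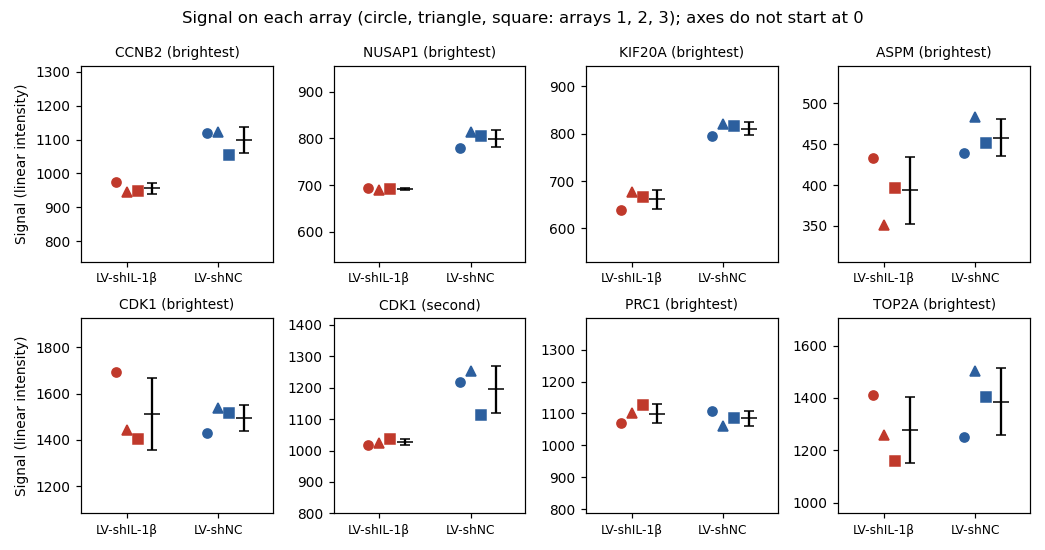
Signal of 7 members on each array (vertical axis, linear intensity, not starting at 0), with LV-shIL-1β in red left of LV-shNC in blue; circles, triangles and squares are arrays 1, 2 and 3, and black marks are the mean and SD (n = 3). The groups separate for CCNB2, NUSAP1, KIF20A, ASPM and the probe set of CDK1 with the next highest signal, and overlap for the brightest probe sets of CDK1, PRC1 and TOP2A.

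Neither MKI67, the antigen used in pathology to mark cycling cells, nor TOP2A, the topoisomerase that untangles chromosomes, passed. MKI67 was at 393, 456 and 479 in LV-shIL-1β arrays and at 656, 497 and 469 in LV-shNC arrays. LV-shNC 1 stood above the other arrays, the groups overlapped, and the log2 fold change was -0.28 ± 0.12 (SE, limma, adjusted p = 0.198). The other 3 probe sets of MKI67 lay between -0.09 and 0.02. TOP2A was at 1411, 1260 and 1160 in LV-shIL-1β and at 1251, 1502 and 1405 in LV-shNC (-0.12 ± 0.08). On its next probe set the groups did not overlap, at 497 to 576 in LV-shIL-1β and 577 to 704 in LV-shNC, without passing (-0.22 ± 0.08, adjusted p = 0.134).

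The order of the arrays within each group was also read, by rank alone. In 14 members LV-shNC 1 was the lowest of the LV-shNC arrays while LV-shIL-1β 1 was the highest of its group, an order that 16.6% of all genes showed. These were CDK1, CKS2, BUB1, NEK2, NUF2, KIF11, KIF14, NUSAP1, ASPM, HMMR, KIF23, ECT2, RACGAP1 and TOP2A. RACGAP1 showed it most plainly among the cytokinesis genes, at 1122, 941 and 871 in LV-shIL-1β arrays against 834, 1072 and 982 in LV-shNC arrays. The reverse order, with LV-shNC 1 highest and LV-shIL-1β 1 lowest, was seen in 11 members, MKI67 among them, and in 26% of all genes. The deviations of LV-shIL-1β 1 and LV-shNC 1 from their group means had a correlation of -0.74 across the 40 members, which share these arrays and are not independent, and of -0.39 across all 27566 probe sets. The ACTB ratio of 3′ to 5′ signal was 0.44, 0.41 and 0.33 in LV-shIL-1β arrays 1 to 3 and 0.30, 0.39 and 0.55 in LV-shNC arrays 1 to 3, and the part of RNA integrity in this order was not tested. With array 1 of both groups left out, a setting chosen after the data were seen, 8 members were lower, the 3 above with NEK2, ASPM, HMMR, NUF2 and TOP2A, and 0 were higher. NEK2, ASPM, HMMR, NUF2 and TOP2A are all among the 14 members with the first order. For that order, leaving out these arrays lowers the fold change by construction, so the added calls are no separate evidence of a fall. Without these arrays 3.77% of all probe sets were lower, which is not a share of genes on their brightest probe set. In the main fit 3.37% of all probe sets and 4.5% of such genes were lower.

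**Figure D3:**
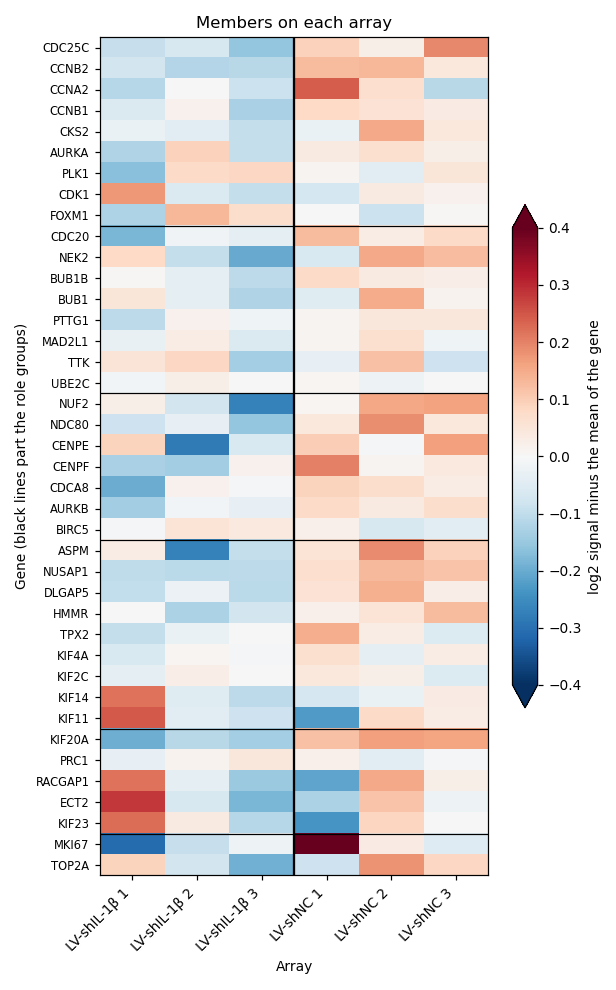
Log2 signal of the 40 members on each array after subtracting the mean of the gene (colour, blue below and red above it), with LV-shIL-1β arrays in the left 3 columns and LV-shNC arrays in the right 3; black lines part the role groups. Most rows are bluer on the left, while KIF11, KIF23, ECT2 and RACGAP1 are red in LV-shIL-1β 1 and blue in LV-shNC 1.

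By array, the median of the members' log2 signals, each taken relative to the gene's own mean, was -0.04, -0.04 and -0.10 in LV-shIL-1β arrays 1 to 3, against 0.03, 0.06 and 0.03 in LV-shNC arrays 1 to 3. The numbers of members below their own mean were 26, 25 and 33 of 40 in the LV-shIL-1β arrays and 11, 8 and 9 in the LV-shNC arrays. No array of either group had a median on the other side of 0.

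The 40 members had 73 probe sets above the filter, of which 8 were lower and 0 higher, against 3.37% lower and 3.68% higher among all probe sets. At least 1 probe set was lower in 6 members, CCNB2, NUSAP1 and KIF20A with CDK1, NEK2 and ASPM, against 5.4% of all genes. Of the 21 members with more than 1 such probe set, 9 had all of them below 0, 0 had all above 0, and 12 had probe sets on both sides. When the log2 signals of a gene's probe sets were averaged, 7 members were lower, namely CCNB2, NUSAP1, KIF20A, NEK2, ASPM, HMMR and CENPF, and in that setting 5.89% of all genes were lower.

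**Figure D4:**
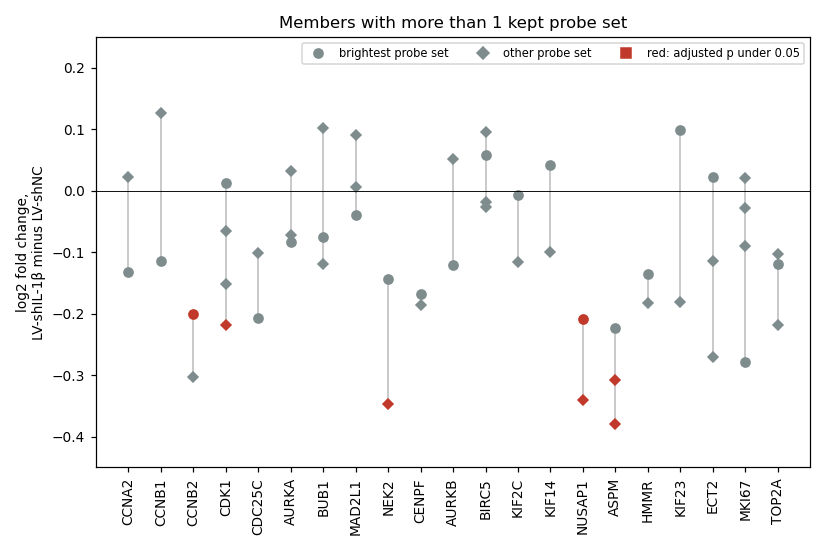
Log2 fold change (vertical axis, LV-shIL-1β minus LV-shNC) of every kept probe set of the 21 members with more than 1; circles are the brightest probe set, diamonds the others, and red marks an adjusted p under 0.05. NUSAP1 and ASPM have 2 red probe sets each, and CCNB1, CDK1, BUB1, MAD2L1, BIRC5 and KIF23 are among the members with points on both sides of 0.

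Of 63 further G2/M genes, 5 were lower in LV-shIL-1β and 1 was higher, and the median of their log2 fold changes was -0.03, against 0.00 over all genes. Over all genes 4.5% were lower and 4.03% higher. The lower ones included CDKN3, a phosphatase that acts on CDKs, at 848, 846 and 852 in LV-shIL-1β arrays against 1023, 1090 and 1099.7 in LV-shNC arrays (-0.33 ± 0.04, SE, limma, Benjamini-Hochberg adjusted p = 0.00205) and passed on leaving out any one array. LMNB1, a lamin of the nuclear envelope (-0.40 ± 0.09), MIS18A, a centromere loading factor (-0.35 ± 0.08), CKAP2L, a spindle protein (-0.35 ± 0.08), and SGO2, a protector of centromeric cohesion (-0.30 ± 0.06), were also lower. Each of these 4 lost its call in 4 of the 6 runs with 1 array left out (largest limma adjusted p = 0.105), and every one without LV-shIL-1β 2 or LV-shNC 2. CDC25B, a CDK-activating phosphatase, was higher (0.17 ± 0.04, adjusted p = 0.0448), and lost its call on leaving out any one array (largest limma adjusted p = 0.151).

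Regulators of transcription, brakes on mitosis and the anaphase-promoting complex were also read. Of 41 tested genes of these kinds, 0 were higher and 0 lower on the brightest probe set (limma, Benjamini-Hochberg adjusted p under 0.05). They included some MuvB, E2F and NF-Y subunits and some CDK inhibitors. Of their 98 probe sets above the filter 1 was higher, against 3.68% of all probe sets, and 0 were lower. It was the dimmest of TFDP1, an E2F partner, at 114, 132 and 113 in LV-shIL-1β and at 79.7, 86.0 and 84.1 in LV-shNC (log2 fold change 0.52 ± 0.08, SE, limma, Benjamini-Hochberg adjusted p = 0.00382). Its other probe sets stood at -0.04 ± 0.04 and 0.02 ± 0.11 and did not pass. On the brightest probe sets the methods' t-test with the same adjustment also called 0. At an unadjusted limma p under 0.05, 4 of the 41 were lower and 5 higher, against 12% lower and 13% higher among all genes. MYBL2, the MYB protein that joins MuvB at G2/M promoters, was at 164 ± 10.9 in LV-shIL-1β and 171 ± 3.51 in LV-shNC (SD, n = 3). The CDK inhibitor CDKN1A was at 165 ± 6.74 in LV-shIL-1β and 169 ± 5.49 in LV-shNC. WEE1, the kinase that restrains CDK1, was at 425 ± 25.7 in LV-shIL-1β and 439 ± 20.7 in LV-shNC. LIN9 and LIN54 of MuvB, RPRM and the CDK inhibitor CDKN1C lay below the filter and were not tested. CDKN1C was at 14.5, 14.8 and 13.9 in LV-shIL-1β and at 22.2, 18.3 and 22.5 in LV-shNC on its brightest probe set.

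For G1/S and DNA replication genes, 4 of 42 tested were higher and 0 lower, and the median of their log2 fold changes was 0.11, against 4.03% higher, 4.5% lower and a median of 0.00 over all genes. At an unadjusted limma p under 0.05, 18 were higher and 4 lower, against 13% higher and 12% lower over all genes, and 0 passed the methods' t-test after the same adjustment. The higher genes were ORC1 of the origin recognition complex (0.33 ± 0.07, SE), the licensing factor CDC6 (0.26 ± 0.06), the flap endonuclease FEN1 (0.25 ± 0.04) and the helicase subunit MCM3 (0.19 ± 0.05). None of the 4 passed without LV-shIL-1β 2 or 3 or LV-shNC 2 (largest limma adjusted p = 0.176). The difference between these genes and the G2/M members was not tested.

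**Figure D5:**
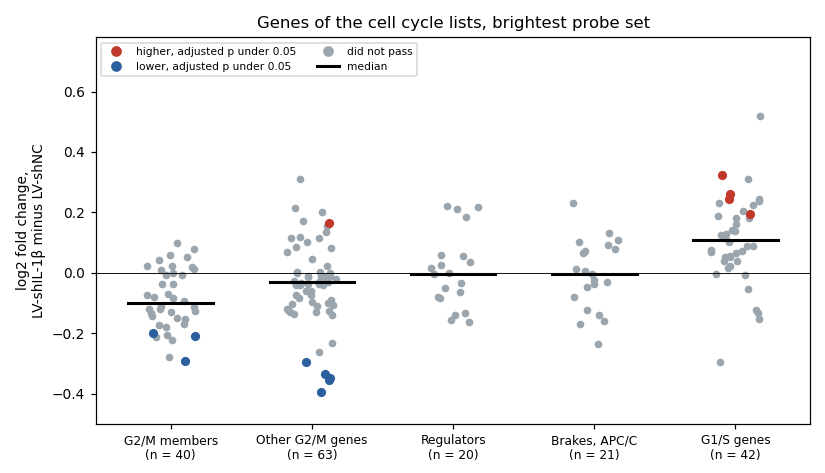
Log2 fold change (vertical axis, LV-shIL-1β minus LV-shNC, brightest probe set) of the 40 G2/M members, 63 other G2/M genes, 20 transcription regulators, 21 brakes and genes of the anaphase-promoting complex, and 42 G1/S genes. Each point is a gene (CDC25A and E2F1 stand in 2 lists each), black lines are medians, and red and blue mark genes higher and lower at an adjusted p under 0.05. The median is -0.10 for the members and 0.11 for the G1/S genes, with 3 blue points among the members and 4 red points among the G1/S genes.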

How the data were processed

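Expression was measured on Affymetrix Human Genome U133 Plus 2.0 arrays, 3 of LV-shIL-1β and 3 of LV-shNC cells, grouped by the sample titles. The values deposited by the authors were linear intensities per probe set, which the submitters' processing notes tie to MAS5; its version and its scaling are not given in the sources at hand. Signals were taken to log2 as deposited. The 62 control probe sets were left out, and probe sets with at least 3 of 6 arrays above the median of the others (18.6) were kept, 27566 of 54613. The comparison used R 4.3.3 and the lmFit and eBayes functions of limma 3.58.1, with a trend of variance on mean signal and two-sided tests of LV-shIL-1β over LV-shNC, and Benjamini-Hochberg adjustment over all kept probe sets at 0.05. Genes came from the platform annotation where it lists 1 symbol, and promoters from RefSeq. The model was tested on simulated data. In that simulation probe sets were drawn independently, without effects shared by an array. Precision is limited by the number of arrays.

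The members, gene lists and tests were chosen with earlier results of these data known. All 40 members are named; values on each array are given for those called and, in each role group, for the brightest and the most changed, and for others that were chosen after their values were seen (IL1B, CDK1, NEK2, RACGAP1, CDKN3, the other probe set of NUSAP1, and the promoters of PRC1 and PLK1). Up to 4 called genes in each direction are named from other lists, and SGO2, TFDP1 and CDKN1C were added after their values were seen. Alternatives covered the normalization, the filter, a pseudocount of 16, the probe set used for each gene, the methods' t-test, the replicate number as a block, and leaving out arrays.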

Additional observations from a re-analysis of the deposited data

How the results depend on the processing

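The median log2 fold change of the members stayed between -0.12 and -0.08 in all settings, single arrays left out included, and in all of them 0 members were higher. The number of lower members (3) was 7 with the mean over probe sets, 5 with the probe set of largest variance, 1 with the methods' t-test (NUSAP1), 8 without array 1 of both groups, and between 1 and 4 with single arrays left out (1 without LV-shIL-1β 2 or 3 or LV-shNC 2). KIF20A, NUSAP1 and CCNB2 kept their sign in all 16 settings, and KIF20A passed in 15, NUSAP1 in 11 and CCNB2 in 9. IL1B passed on both probe sets with every array left out (log2 fold change -0.74 to -0.69 and -0.77 to -0.73).

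With the replicate number as a block, 1 member was lower (KIF20A), 1 other G2/M gene was lower and 0 higher, and 0 G1/S genes were higher. Of all probe sets, 1.14% were lower and 0.925% higher in that setting. The replicate numbers mark no shared culture in the labels. Deviations of same-numbered arrays had correlations of -0.39, -0.11 and -0.21 across all probe sets. Each deviation is taken from its own group's mean, so these values cannot show whether same-numbered arrays shared a culture or a batch.

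For the other G2/M genes, the lower count (5) was 0 with the methods' t-test, 9 without array 1 of both groups and 1 to 5 with single arrays left out. The higher count (1) was 2 with median centring, 0 with no filter, the probe set of largest variance, quantile normalization or the methods' t-test, 3 without array 1 of both groups, and 0 to 2 with single arrays left out. For G1/S genes the higher count (4) was 12 with the mean over probe sets, 7 with median centring, 0 with the methods' t-test, 11 without array 1 of both groups and 0 to 8 with single arrays left out. The lower count (0) was 1 with the mean over probe sets, with quantile normalization and without array 1 of both groups, and 0 to 1 with single arrays left out. For regulators, brakes and the anaphase-promoting complex the count (0) was 1 with the mean over probe sets, the probe set of largest variance, no filter, and without array 1 of both groups. Of all genes, 6.59% were higher with the mean over probe sets. Of all probe sets, 4.34% were higher with median centring, 0.385% with the methods' t-test and 5.31% without array 1 of both groups. With single arrays left out, 0.987 to 3.84% of all probe sets were higher. The cause was not tested.

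Of the 37 members that did not pass, 16 changed sign in at least 1 setting. Median centring shifts all genes alike, and PLK1 (0.0079), KIF2C (0.0085) and TTK (0.014), which lay just below 0, crossed it. With the mean over probe sets CCNB1 (0.0065), CDK1 (-0.11), KIF23 (-0.041), KIF14 (-0.029), ECT2 (-0.12) and MAD2L1 (0.020) did. With the probe set of largest variance CCNB1 (0.13), CDK1 (-0.22), AURKB (0.052), KIF23 (-0.18), ECT2 (-0.27) and MAD2L1 (0.0070) did. Without array 1 of both groups CDK1 (-0.10), PLK1 (0.078), KIF11 (-0.12), TPX2 (0.00097), KIF2C (0.030), KIF23 (-0.082), KIF4A (0.0034), KIF14 (-0.081), ECT2 (-0.17) and RACGAP1 (-0.18) did. With single arrays left out, log2 fold changes ran from -0.071 to 0.063 for CDK1, -0.050 to 0.075 for PLK1, -0.023 to 0.14 for KIF11, -0.0019 to 0.015 for UBE2C, -0.036 to 0.012 for KIF2C, -0.057 to 0.10 for KIF14, -0.044 to 0.067 for TTK, -0.11 to 0.12 for ECT2, -6.5e-06 to 0.13 for FOXM1 and -0.081 to 0.10 for RACGAP1.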
